A study of Mus musculus with 4 samples.

Results

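The EGF family ligands and the ERBB receptors they act on were followed in mouse gastric organoids, through 10 genes chosen by name: the receptor genes Egfr, Erbb2 and Erbb3, and the ligand genes Areg, Ereg, Btc, Hbegf, Tgfa, Epgn and Nrg1. All 10 symbols were found among the 45777 genes measured. Total RNA was sequenced from 2 Smad4 Knockout libraries, from organoid lines in which Cdh1, Trp53 and Smad4 were knocked out, and from 2 Control libraries, from lines in which Cdh1 and Trp53 were knocked out. Both groups therefore lacked the adhesion protein E-cadherin (Cdh1) and the tumour suppressor p53 (Trp53) by label, and differed by Smad4, whose product joins the receptor-activated SMADs downstream of TGF-beta and BMP receptors. Each library came from its own line (CPS1 and CPS4 for the knockout, CPE and CPG for the control), so each group rests on 2 lines, and the sources used here do not say whether the lines are clones, share an animal or were derived from one another. Before RNA was taken, the cells spent 2 days in a medium supplemented with B27 and N2 that lacked serum and conditioned medium. The sources used here do not say whether EGF was added to it.

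The EGF family is a set of growth factors made as membrane-anchored precursors and released by metalloproteases such as ADAM17. Amphiregulin (Areg), TGF-alpha (Tgfa) and epigen (Epgn) bind EGFR, while betacellulin (Btc), epiregulin (Ereg) and HB-EGF (Hbegf) bind EGFR and ERBB4, and neuregulin 1 (Nrg1) binds ERBB3 and ERBB4. Bound receptors pair with each other. ERBB2 binds no known ligand and serves as the preferred partner, and ERBB3 has little kinase activity and signals through PI3K in such pairs. In the stomach EGFR ligands are known as drivers of surface mucous cell growth, and an excess of TGF-alpha is linked with Ménétrier disease.

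On the GRCm38 build (mm10) 4 of the ligand genes form a cluster. Epgn, Ereg, Areg and Btc fall in that order on chromosome 5 within 375478 bases, from 91027517 to 91402994, with 3 other annotated genes in the span. Areg (gene ID 11839) spans 91139599 to 91148432 on the plus strand, and Btc (gene ID 12223) spans 91357261 to 91402994 on the minus strand. Egfr (gene ID 13649) spans 16752203 to 16913907 on the plus strand of chromosome 11. RefSeq start-site windows of 300 bases, from 250 bases before to 50 after the start of the gene (build GRCm38.p6), were found for 6 of the 10 genes. The window of Tgfa was placed on another start site, since it began at 86194972 while the gene was listed from 86195038. The windows of Areg and Btc are shown because the CPM of these genes took the same order across the 4 libraries, and that of Egfr because it ran the other way in the second knockout library. They read 5′ to 3′ on the strand of the gene, and capitals mark matches on either strand to the letters TATAAA (the TATA box), GGGCGG (the GC box), TGACGTCA (the cyclic AMP response element), TGANTCA (the AP-1 site) and CAGAC (the SMAD box).
Areg, chr5:91139349-91139648, plus strand: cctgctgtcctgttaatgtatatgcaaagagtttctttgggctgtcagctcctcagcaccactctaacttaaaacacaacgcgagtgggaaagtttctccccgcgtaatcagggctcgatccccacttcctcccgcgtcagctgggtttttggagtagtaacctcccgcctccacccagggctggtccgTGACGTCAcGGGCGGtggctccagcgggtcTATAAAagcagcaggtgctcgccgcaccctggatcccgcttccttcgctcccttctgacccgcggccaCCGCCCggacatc
Btc, chr5:91402945-91403244, minus strand: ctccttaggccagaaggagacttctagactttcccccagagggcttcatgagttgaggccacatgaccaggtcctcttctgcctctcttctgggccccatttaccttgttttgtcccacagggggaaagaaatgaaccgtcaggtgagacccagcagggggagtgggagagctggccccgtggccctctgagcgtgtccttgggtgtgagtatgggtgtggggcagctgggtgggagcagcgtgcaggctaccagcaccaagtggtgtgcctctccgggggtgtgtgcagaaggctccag
Egfr, chr11:16751953-16752252, plus strand: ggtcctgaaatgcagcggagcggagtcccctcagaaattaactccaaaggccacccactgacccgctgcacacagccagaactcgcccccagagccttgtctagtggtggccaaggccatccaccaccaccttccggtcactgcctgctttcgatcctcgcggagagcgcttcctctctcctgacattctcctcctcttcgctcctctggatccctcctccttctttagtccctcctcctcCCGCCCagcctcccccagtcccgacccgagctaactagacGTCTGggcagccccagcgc
The Areg window held a TATAAA 31 bases before the start, a TGACGTCA 61 bases before it, and 2 GGGCGG matches. TATAAA was in 13.6% of 32851 mouse windows of this length, TGACGTCA in 1.79% and GGGCGG in 35.7%. The Btc window held none of the 5 letter strings, and the Egfr window held 1 GGGCGG and 1 CAGAC. Over all windows CAGAC was present in 49.6% and TGANTCA in 7.81%. The palindromic SMAD element GTCTAGAC was in 0.213% of all windows and in none of the 6 found here. GC content was 59.3% in the Areg window, 60.3% in the Btc window and 62.3% in the Egfr window, against a median of 52.7% over all windows.

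Depth was 85649781 and 96402585 counts in the knockout libraries and 99845702 and 92334224 in the control libraries. Smad4 was at 54.4 and 52.9 CPM (counts relative to library size, with sizes adjusted by TMM) in Smad4 Knockout 1 and 2, against 94.5 and 103 CPM in Control 1 and 2, so transcript of the targeted gene was lower in both knockout libraries and still present. Cdh1 was at 30.6 and 44.1 CPM in the knockouts against 30.7 and 26.0 CPM in the controls. Trp53 was at 5.43 and 4.69 CPM in the knockouts against 4.87 and 6.98 CPM in the controls. Transcripts of both genes were thus present, and their levels could not be checked against a line in which the genes are intact. All 7 epithelial marker genes were above 1 TPM (a level corrected for transcript length) in every library, with a summed level of 9404 to 10061 TPM in the knockouts and 9405 to 9878 TPM in the controls. Of the 10 gastric markers 8 had a count, with a sum of 256 and 319 TPM in the knockouts against 155 and 124 TPM in the controls, led by Tff1 with a mean of 113 TPM. Pgc and Cblif, markers of zymogenic chief cells in the mouse, were at 0 in all libraries, and Muc5ac, the surface mucin, was at most at 0.347 TPM. All 7 squamous markers had a count, and their sum was 166 and 202 TPM in the knockouts against 96.3 and 80.8 TPM in the controls, led by Krt4. The basal squamous genes Krt5, Krt14 and Trp63 were at most at 1.07 TPM. No fibroblast marker reached 1 TPM in any library (Pdgfrb and Lum at 0, sums of 0.291 to 0.937 TPM over the 4 libraries), the 6 immune markers summed to 4.52 to 5.19 TPM with Cd68 at a mean of 4.68 TPM and Cd3e at 0, and the 4 endothelial markers to 0.884 to 1.59 TPM, led by Kdr.

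The organoids expressed 9 of the 10 genes, and their order of level was much the same in all libraries. Hbegf and Areg were the highest, Erbb3 was the highest receptor gene, Nrg1 was low and Epgn was close to absent. In TPM, Hbegf was at 92.6 and 82.4 in the knockout libraries and 115 and 94.8 in the control libraries. Areg was at 80.3 and 94.5 TPM in the knockouts against 91.6 and 61.5 TPM in the controls, so the ranges of these genes overlapped and Hbegf was above Areg in 3 of 4 libraries. Their mean levels lay above those of 92.8% and 91.4% of the genes tested. Erbb3 followed at 44.9 and 47.2 TPM in the knockouts against 38.03 and 38.3 TPM in the controls, below Areg and above Egfr in all 4 libraries.

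Egfr was at 34.8 and 23.1 TPM in the knockouts and 32.1 and 37.6 TPM in the controls, and Erbb2 at 25.5 and 26.4 TPM in the knockouts and 19.4 and 26.03 TPM in the controls. Then came 3 ligand genes with overlapping ranges. Btc lay between 16.6 and 24.4 TPM, Ereg between 18.0 and 20.7 TPM, and Tgfa between 16.5 and 21.2 TPM. Neighbours in the order from Egfr down to Tgfa overlapped in range, so their order is not separated by the spread of the libraries. Nrg1 was lower than all of these in each library, at 6.66 and 5.74 TPM in the knockouts and 5.61 and 8.19 TPM in the controls. Epgn, at most at 0.422 TPM, was the lowest in each library.

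**Figure D1:**
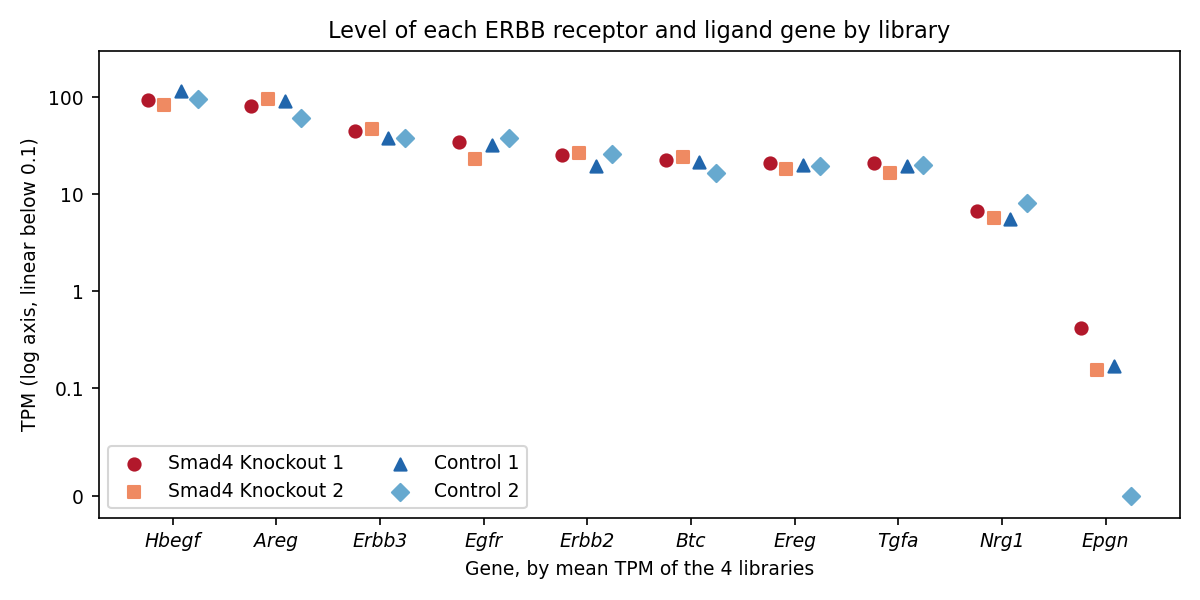
Level of each receptor and ligand gene in TPM (vertical axis, logarithmic above 0.1 and linear below it) in the 2 Smad4 Knockout and the 2 Control libraries, with 1 point per library. Hbegf and Areg lie highest, between 61.5 and 115 TPM, Nrg1 lies between 5.61 and 8.19 TPM, and Epgn is at most at 0.422 TPM with 1 control library at 0.

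The remaining family genes were low or not seen. Erbb4, the fourth receptor and the other receptor for neuregulins, had 0 counts in all 4 libraries, as did the neural ligand gene Nrg3. A reading of 0 leaves room for up to 3.69 counts per library (exact Poisson 95% interval), for counting error only. Egf itself was at 0.255 and 0.506 CPM in the knockouts against 0.429 and 0.766 CPM in the controls. Nrg4 was at 0.659 and 0.949 CPM in the knockouts against 1.34 and 1.08 CPM in the controls. Nrg2 was at 0.868 and 0.444 CPM in the knockouts against 1.38 and 1.66 CPM in the controls (log2 fold change -1.21, SE 0.46, edgeR adjusted p = 0.753). The receptor transcripts of these organoids were therefore those of Egfr, Erbb2 and Erbb3, and Erbb3 was the 1 neuregulin-binding receptor with counts.

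The comparison of Smad4 Knockout with Control asked whether the family shifts when Smad4 is removed on the Cdh1 and Trp53 knockout background. All 10 genes passed the filter on low counts. None passed edgeR's quasi-likelihood test with Benjamini-Hochberg adjustment at 0.05 over all 18115 genes tested, and the 95% interval of the fold change included 0 for all 10. In that fit 0% of all genes were called higher and 0% lower. The targeted gene Smad4 was itself not called in it (log2 fold change -0.88, SE 0.10, edgeR adjusted p = 0.677). An uncalled gene is therefore not shown to be unchanged. At an unadjusted p under 0.05 edgeR gave 0 of the 10 genes, beside 6.36% of all genes (3.33% higher and 3.04% lower), and DESeq2 called 0 of the 10, beside 0.513% of genes higher and 0.173% lower. Of the fold changes, 5 were above 0 and 5 below, with a median log2 fold change of 0.04 (-0.07 without Epgn, which has few reads), beside -0.0026 over all genes tested. The median size of the log2 fold change, sign left aside, was 0.25 in the family (0.24 without Epgn) and 0.17 over all genes. In CPM, the knockout and control libraries did not overlap for 2 of the 10 genes, beside 36.9% of all genes. Of all genes, 18.2% were higher and 18.6% lower in both knockouts. Because nothing says that the lines are from separate animals, these p-values measure only the spread between 4 libraries.

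**Figure D2:**
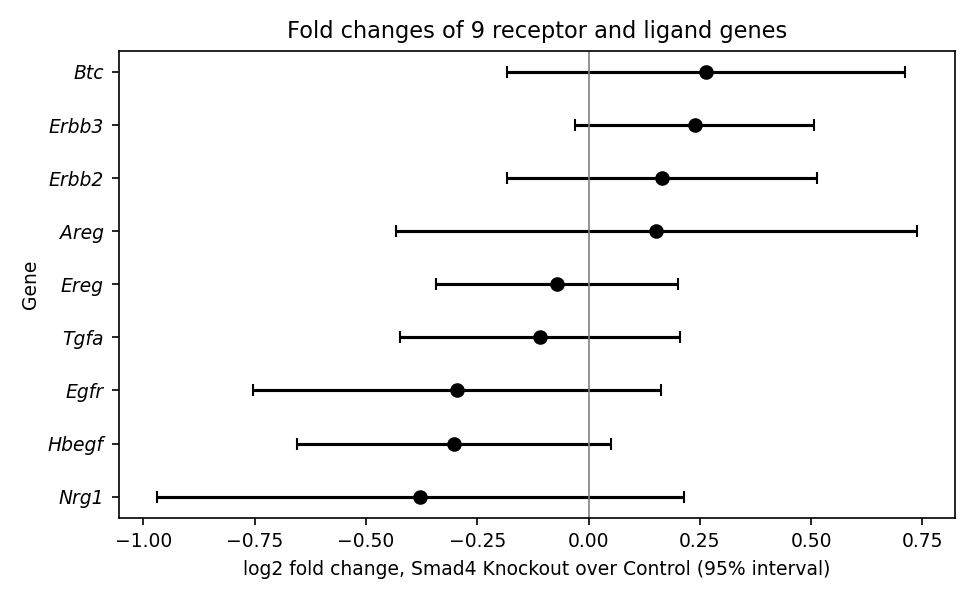
Log2 fold change of Smad4 Knockout over Control for 9 genes (horizontal axis), from the edgeR fit of all genes, with bars for the 95% interval. Every interval crosses 0, from Nrg1 at -0.38 to Btc at 0.26, and Epgn is left out because its interval runs from -2.45 to 5.69.

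Among the receptors, Erbb3 was the gene whose groups did not overlap. It was at 158 and 178 CPM in Smad4 Knockout 1 and 2, against 147 and 138 CPM in Control 1 and 2. Both knockout libraries lay above both controls, by a margin smaller than the gap between the knockouts. The means were 168 ± 14.3 CPM in the knockouts and 142 ± 6.06 CPM in the controls (SD, n = 2 each), a log2 fold change of 0.24 (SE 0.11, 95% interval -0.03 to 0.51) with an edgeR adjusted p of 0.819. The squamous and gastric marker sums given above were also higher in both knockouts. In TPM, 3 of 7 squamous and 3 of 10 gastric markers were above both controls in both knockouts. Below both controls were 0 of the squamous and 1 of the gastric markers. Over all genes tested, 18.2% were higher and 18.6% lower in both knockouts, in CPM. Krt4 made up 92.7% and 93.0% of the squamous sum in the knockouts and 88.0% and 86.8% in the controls. Sox2, Atp4a, Krt13 and Ivl overlapped between the groups, and the part of these markers in the Erbb3 level was not tested.

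Erbb2, the partner receptor without a ligand, was at 74.8 and 83.0 CPM in the knockouts against 62.4 and 78.2 CPM in the controls. The groups overlapped, with Control 1 standing lowest. The log2 fold change was 0.17 (SE 0.14, 95% interval -0.18 to 0.51, edgeR adjusted p = 0.935), and it was 0.01 without Control 1.

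Egfr was at 118 and 81.3 CPM in the knockouts against 117 and 128 CPM in the controls. Smad4 Knockout 1 lay with the controls, and Smad4 Knockout 2 lay below the other 3 libraries. The means were 99.8 ± 26.1 CPM in the knockouts and 123 ± 7.50 CPM in the controls (SD, n = 2 each), with a log2 fold change of -0.30 (SE 0.19, 95% interval -0.75 to 0.16, edgeR adjusted p = 0.873). The difference rested on 1 library. Leaving out Smad4 Knockout 2 gave a log2 fold change of -0.04, and leaving out Smad4 Knockout 1 gave -0.59. An antisense gene, Egfros, overlaps Egfr at a mean of 1.49 CPM.

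The mix of receptor transcripts followed from these levels. Egfr made up 33.04% and 23.9% of the summed TPM of the 3 receptor genes in the knockouts, against 35.8% and 36.9% in the controls. Erbb3 made up 42.7% and 48.8% in the knockouts against 42.5% and 37.6% in the controls. The level of Erbb3 over that of Egfr was 1.29 and 2.05 in the knockouts against 1.18 and 1.02 in the controls, so it was higher in both knockouts and furthest out in Smad4 Knockout 2. The summed receptor level itself was 105 and 96.6 TPM in the knockouts against 89.6 and 102 TPM in the controls, groups that overlapped.

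Among the ligands of EGFR, Hbegf was the gene whose groups did not overlap in CPM. HB-EGF is the heparin-binding member and is well known from epithelial repair. Hbegf was at 129 and 123 CPM in the knockouts against 175 and 135 CPM in the controls. Both knockouts lay below both controls, and Control 1 stood well above the other 3 libraries. The means were 126 ± 3.99 CPM in the knockouts and 155 ± 28.04 CPM in the controls (SD, n = 2 each), a log2 fold change of -0.30 (SE 0.14, 95% interval -0.66 to 0.05, edgeR adjusted p = 0.819). Without Control 1 the log2 fold change was -0.10, and without Control 2 it was -0.48.

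Areg and Btc, both in the chromosome 5 cluster, took the same order across the libraries in CPM. Areg was at 57.1 and 72.2 CPM in the knockouts against 71.5 and 44.9 CPM in the controls. Btc was at 38.03 and 44.1 CPM in the knockouts against 39.6 and 28.8 CPM in the controls. For both genes Smad4 Knockout 2 was the highest library, Control 1 came next, Smad4 Knockout 1 after it and Control 2 was the lowest, so the controls spanned more than the gap between the group means. In TPM the order held for Areg and not for Btc, which was at 22.6 and 24.4 TPM in the knockouts against 21.5 and 16.6 TPM in the controls, with both knockouts above both controls. The log2 fold change of Areg was 0.15 (SE 0.24, 95% interval -0.43 to 0.74) and that of Btc 0.26 (SE 0.18, 95% interval -0.18 to 0.71), with edgeR adjusted p-values of 0.983 and 0.884. Without Control 1 they were 0.53 and 0.52, and without Control 2 they were -0.15 and 0.05, so the direction for Areg depended on which control library was kept.

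Ereg, from the same cluster, did not share this pattern and was the steadiest gene of the family. It was at 50.2 and 46.8 CPM in the knockouts against 53.1 and 48.8 CPM in the controls, and its highest library was 1.13 times its lowest. Its log2 fold change was -0.07 (SE 0.11, 95% interval -0.34 to 0.20, edgeR adjusted p = 0.982), and a change within those bounds was not resolved. An antisense gene, Gm19610, overlaps the start of Ereg at a mean of 3.63 CPM.

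Tgfa, which encodes TGF-alpha, was at 56.3 and 47.0 CPM in the knockouts against 57.3 and 54.1 CPM in the controls. Smad4 Knockout 2 was the lowest library and the other 3 lay close together. The log2 fold change was -0.11 (SE 0.13, 95% interval -0.42 to 0.20, edgeR adjusted p = 0.965), and 0.03 without Smad4 Knockout 2.

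Epgn had 37 and 17 counts in Smad4 Knockout 1 and 2, against 19 and 0 counts in Control 1 and 2. The exact Poisson 95% intervals were 26.1 to 51.0 and 9.90 to 27.2 counts in the knockouts, against 11.4 to 29.7 counts in Control 1, and they cover counting error only. For the 0 in Control 2 the same interval runs up to 3.69 counts. The second knockout and the first control were alike within counting error. The log2 fold change of 1.62 (SE 1.66, edgeR adjusted p = 0.958) rests on a handful of reads.

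Nrg1, the ligand gene for ERBB3, is the largest of the family, spanning 31807452 to 32891609 on the minus strand of chromosome 8 with 43 RefSeq transcripts listed. It was at 36.8 and 23.6 CPM in the knockouts against 34.1 and 44.4 CPM in the controls. Smad4 Knockout 2 was the lowest library and Control 2 the highest, as for Egfr. The log2 fold change was -0.38 (SE 0.24, 95% interval -0.97 to 0.22, edgeR adjusted p = 0.876). It was -0.73 without Smad4 Knockout 1 (edgeR adjusted p = 0.325) and -0.08 without Smad4 Knockout 2. Fibroblast markers were near 0 in all libraries as given above, and which cells the Nrg1 reads came from was not tested.

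The 2 deposited units disagreed for Nrg1. In TPM, Smad4 Knockout 2 (5.74) lay above Control 1 (5.61), while in CPM it lay below it. In limma on the log2(TPM + 1) scale the change was -0.12 (SE 0.21), against -0.38 from the counts. The number of reads behind each TPM of Nrg1, relative to its mean of the 4 libraries and to single-transcript genes, was 1.11 and 0.768 in the knockouts against 1.11 and 1.06 in the controls. The highest of these was 1.45 times the lowest, a wider range than in 97.8% of 8861 genes with several transcripts. TPM divides by the length of the transcripts assigned, so the reads of Nrg1 in Smad4 Knockout 2 were assigned to shorter transcripts on average. The same ratio spanned 1.04 times for Egfr and 1.005 times for Tgfa, the other family genes with several RefSeq transcripts (2 each).

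Over the 9 genes with at least 5 CPM, Smad4 Knockout 2 was the highest library for 4 (Erbb2, Erbb3, Areg and Btc) and the lowest for the other 5 (Egfr, Hbegf, Nrg1, Tgfa and Ereg). It was at either end for 58.0% of the 10804 genes at that level. Smad4 Knockout 1 was at neither end for any of the 9, and was at either end for 32.5% of all genes. The root mean square distance between the knockout libraries over the 9 genes was 0.33 in log2 CPM, and that between the controls was 0.35. Smad4 Knockout 1 was nearer to Control 1 (0.21) and Control 2 (0.22) than to the other knockout, so the libraries did not group by genotype over these genes. Smad4 Knockout 2 was nearest to Smad4 Knockout 1, and lay at 0.37 from Control 1 and 0.51 from Control 2. The same held over the 10300 protein-coding genes that averaged 5 CPM or more. There Smad4 Knockout 1 was at 0.27 from Control 1, 0.24 from Control 2 and 0.28 from Smad4 Knockout 2. Smad4 Knockout 2 was at 0.35 from Control 1 and 0.41 from Control 2. The mitochondrial share of the counts was 0.954% and 1.48% in Smad4 Knockout 1 and 2, against 0.941% and 1.18% in the controls, and the part of this share in the position of Smad4 Knockout 2 was not tested.

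**Figure D3:**
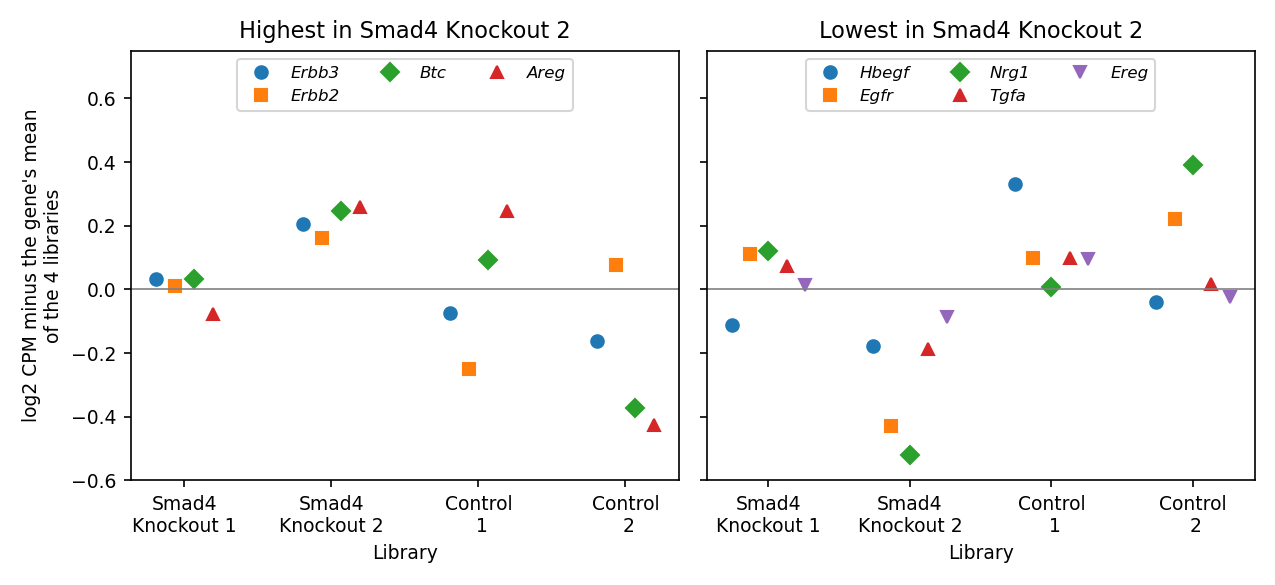
Log2 CPM of each gene minus its own mean of the 4 libraries (vertical axis), by library, with the genes highest in Smad4 Knockout 2 on the left and those lowest in it on the right. Each point is 1 library and positions within a library are spread for legibility. Areg and Btc share their order of libraries, and Egfr and Nrg1 are lowest in Smad4 Knockout 2 and highest in Control 2.

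The closest profiles within the family were those of Ereg and Tgfa (root mean square distance of log2 CPM 0.06), Areg and Btc (0.10), and Egfr and Nrg1 (0.11), and the most distant were those of Areg and Nrg1 (0.59). By the same measure over the 10300 protein-coding genes with at least 5 CPM, the genes most like Erbb3 were Fdxacb1 (0.009), Tnfrsf11a (0.012) and Kcnk1 (0.017). Those most like Hbegf were Zc4h2 (0.0048), Enkd1 (0.021) and Obsl1 (0.023). Each distance rests on 4 libraries.

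The summed level of the 6 EGFR ligand genes was 238 and 236 TPM in the knockouts against 268 and 212 TPM in the controls, so the knockouts lay close together and between the controls, which were further apart. The means were 237 ± 1.35 TPM in the knockouts and 240.02 ± 39.02 TPM in the controls (SD, n = 2 each), a log2 ratio of -0.02, and no test was made because with 2 libraries per group the smallest two-sided p of an exact permutation test is 0.333. Within the sum, Hbegf made up 38.9% and 34.9% in the knockouts against 42.9% and 44.6% in the controls. Areg made up 33.8% and 40.1% in the knockouts against 34.2% and 28.9% in the controls. Hbegf and Areg thus supplied most of the transcript for EGFR ligands in each library, and Hbegf held the larger share in all but Smad4 Knockout 2. Btc, Ereg and Tgfa each made up between 6.99% and 10.3%.

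**Figure D4:**
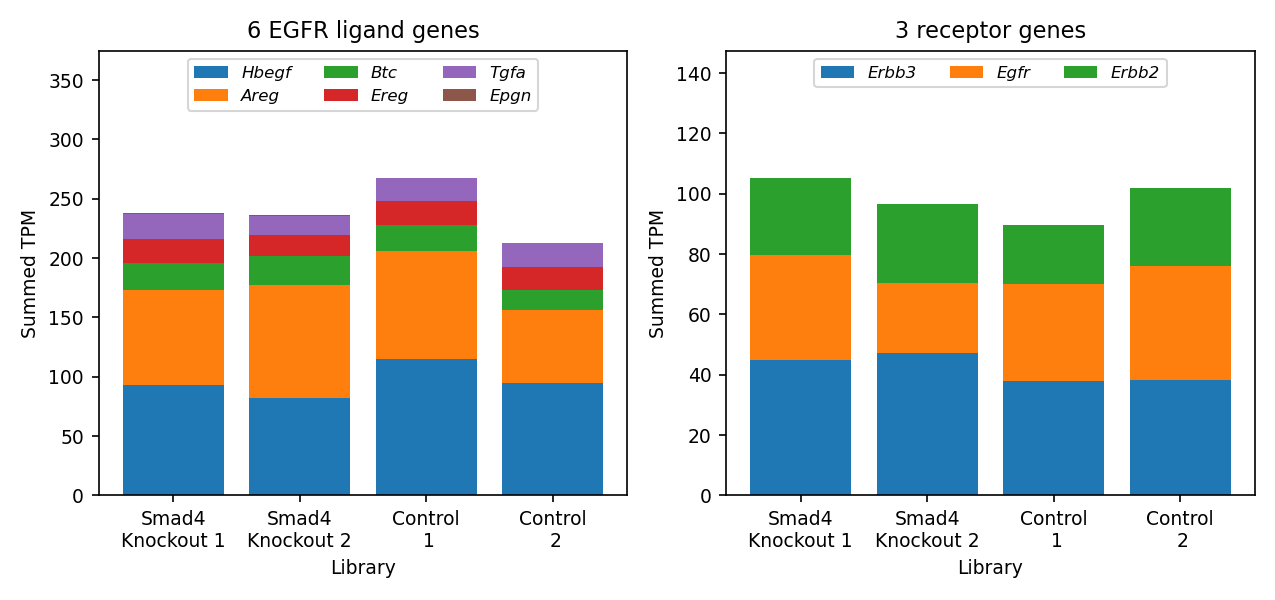
Summed TPM of the 6 EGFR ligand genes (left) and of the 3 receptor genes (right) in each library, with each gene as a coloured segment. The ligand sums are 238 and 236 TPM in the knockouts against 268 and 212 TPM in the controls, and the Egfr segment is smallest in Smad4 Knockout 2.

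The other genes of the pathway also held no called member. Over all 18115 genes tested, 8974 had a fold change above 0 and 9141 below, and 0 were called. Among 9 genes that shed or process the ligands (ADAM proteases, iRhoms, rhomboids), 0 were called, 3 had a fold change above 0 and 6 below, and the median log2 fold change was -0.05. Rhbdf1, an iRhom that carries ADAM17 to the surface, was at 90.4 and 80.9 CPM in the knockouts against 103 and 101 CPM in the controls (log2 fold change -0.25, edgeR adjusted p = 0.801). Timp3, an inhibitor of ADAM17, was at 22.2 and 22.8 CPM in the knockouts against 15.7 and 22.6 CPM in the controls (log2 fold change 0.24, edgeR adjusted p = 0.933).

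Of 14 genes for receptor feedback and turnover (LRIG proteins, CBL ligases, SOCS proteins and phosphatases), 0 were called, 5 were above 0 and 9 below, with a median of -0.03. Errfi1, the feedback inhibitor of EGFR also called MIG6, was at 288 and 280.1 CPM in the knockouts against 334 and 316 CPM in the controls. Both knockouts lay below both controls, and the log2 fold change was -0.19 (SE 0.09, edgeR adjusted p = 0.832). Ptprj, a receptor phosphatase, was at 71.6 and 61.2 CPM in the knockouts against 55.4 and 65.8 CPM in the controls, groups that overlapped (log2 fold change 0.13).

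Of 18 adaptor, RAS, RAF and MEK-ERK genes 0 were called, 6 were above 0 and 12 below (median -0.04). An unadjusted edgeR p under 0.05 was reached by 1 of the 18, beside 6.36% of all genes. That gene was the kinase gene Araf, at 46.4 and 49.6 CPM in the knockouts against 56.3 and 62.4 CPM in the controls (log2 fold change -0.31, edgeR adjusted p = 0.741). Of 9 PI3K and AKT genes 0 were called, with 6 above 0, 3 below and a median of 0.02. Here too 1 gene had an unadjusted p under 0.05, beside the same 6.36% of all genes. That gene was Pik3r2, which encodes a regulatory subunit, at 58.5 and 53.2 CPM in the knockouts against 72.01 and 67.9 CPM in the controls (log2 fold change -0.33, edgeR adjusted p = 0.697). Pik3r1 was at 58.3 and 66.01 CPM in the knockouts against 48.1 and 55.3 CPM in the controls (log2 fold change 0.27, edgeR adjusted p = 0.819).

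Of 16 transcripts known to be induced by ERK 0 were called, 5 were above 0 and 11 below, with a median log2 fold change of -0.09. An unadjusted p under 0.05 was reached by 4 of them, all lower in the knockouts, beside 3.04% of all genes. These were Dusp5, Fos, Fosl1 and Ier3, of which the last 3 are named after their values were seen. Dusp5, a nuclear ERK phosphatase, was at 32.0 and 28.6 CPM in the knockouts against 52.8 and 45.2 CPM in the controls (log2 fold change -0.69, edgeR adjusted p = 0.677). Fosl1, an AP-1 subunit, was at 3.26 and 2.95 CPM in the knockouts against 4.74 and 5.86 CPM in the controls, and Fos at 20.9 and 21.8 CPM in the knockouts against 29.1 and 27.1 CPM in the controls. Ier3, an early response gene, was at 183 and 150.2 CPM in the knockouts against 238 and 197 CPM in the controls.

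The list did not move as a block. Of its 16 genes, 6 were lower and 2 higher in both knockouts without overlap, beside 18.6% and 18.2% of all genes. Dusp6, the cytoplasmic ERK phosphatase, was at 75.5 and 77.8 CPM in the knockouts against 69.1 and 61.6 CPM in the controls (log2 fold change 0.23, edgeR adjusted p = 0.819), higher in both knockouts. Etv5, Spry1 and Dusp4 had log2 fold changes of 0.04, -0.0009 and 0.001, and these 3 genes were also named after their values were seen.

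**Figure D5:**
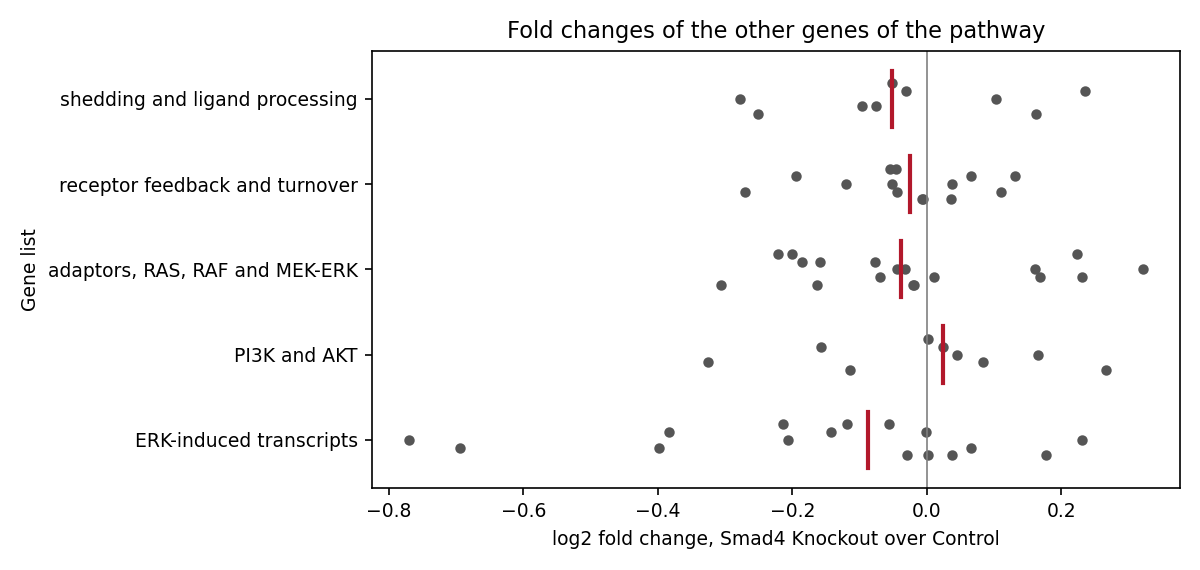
Log2 fold change of Smad4 Knockout over Control (horizontal axis) for each tested gene of 5 pathway lists, with 1 point per gene, spread vertically for legibility, and a red line at the median of the list. The medians lie between -0.09 and 0.02, and the points furthest to the left are Fosl1 and Dusp5 among the ERK-induced transcripts.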

How the data were processed

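RNA of 4 organoid lines was sequenced with a stranded Illumina TruSeq total RNA kit, per the labels' protocols, and grouped by the genotype label. HISAT2 2.1.0 and StringTie 2.1.3b were used with mm10, per the submitters' processing notes, which also list Trimmomatic. The counting step and strand setting were not stated in the sources used here, so sense and antisense reads cannot be told apart. Per the file headers, the deposited values are a read count and a TPM per gene. The deposited counts, all whole, were taken as estimated counts. A total of 5 other columns holding read count, FPKM or TPM values were not used. In the Control 2 file the column names add a 2 to the sample's title.

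Counts were tested with edgeR 4.0.16 in R 4.3.3 (quasi-likelihood F-test, TMM, filterByExpr with a minimum count of 10, genotype as the only term, Benjamini-Hochberg over 18115 genes, threshold 0.05). The SE is the log2 fold change divided by the square root of F, and intervals use the fit's degrees of freedom. CPM uses TMM-scaled library sizes, and TPM served to compare and sum levels of different genes. Alternatives were RLE factors, no filter, DESeq2 1.42.0, limma 3.58.1 on log2(TPM + 1) or log2(TPM + 0.1), and leaving out each library. All 10 family genes were named, and of each pathway list the gene with the smallest p in each direction among genes with at least 5 CPM. Some list members that count in the totals are not reported here. The genes, lists and tests were chosen with earlier results of these data known. Gene coordinates and start-site windows are from RefSeq (GRCm38.p6), and strands and overlapping genes from GENCODE M21. Spreadsheet dates had replaced 26 gene symbols, which were restored from the gene ID.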

Additional observations from a re-analysis of the deposited data

How the results depend on the processing

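None of the 10 genes passed an adjusted p of 0.05 under any alternative run, with adjusted p-values from 0.314 to 0.9998, and of 98 alternative fold changes 95 kept their direction. The exceptions were Areg at -0.01 without Smad4 Knockout 2 and -0.15 without Control 2, and Tgfa at 0.030 without Smad4 Knockout 2. Over the libraries left out, log2 fold changes ran from -0.59 to -0.04 for Egfr, 0.01 to 0.34 for Erbb2, 0.16 to 0.32 for Erbb3, -0.15 to 0.53 for Areg, -0.13 to -0.0077 for Ereg, 0.05 to 0.52 for Btc, -0.48 to -0.10 for Hbegf, -0.25 to 0.03 for Tgfa, 0.63 to 7.80 for Epgn and -0.73 to -0.08 for Nrg1. The log2 ratio of the summed EGFR ligands ran from -0.18 to 0.16, and that of the summed receptors from -0.01 to 0.17. An unadjusted p under 0.05 was reached by Erbb3 in limma on log2(TPM + 1) (0.0319, and 0.0137 without a filter) and on log2(TPM + 0.1) (0.0326). In each edgeR run with 1 library left out, 1 group held only 1 library. The p-values of those runs therefore carried no spread for that group, and they are not listed by gene. For Nrg1 the limma fits of TPM gave log2 fold changes of -0.12 and -0.13. Over all genes edgeR called 0 higher and 0 lower (603 and 550 at an unadjusted p under 0.05), and limma called 0. DESeq2 called 98 higher and 33 lower, of which none was a family gene. From 0 to 48 genes were called higher and from 0 to 44 lower with 1 library left out, where the upper ends came without Smad4 Knockout 1. The cause of these differences was not tested. No paired analysis was possible because the labels carry no replicate number shared between the groups. The 9 expressed genes had at least 2289 counts in each library, so depth limits only Epgn.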
